A study of Mus musculus with 8 samples.

Results

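The ubiquitin ligase and adaptor families were taken as every gene whose symbol begins with Cul, Fbx, Kctd, Klhl, Rnf, Trim or Zyg11 (for Cul and Trim followed by a digit), with Kctd13 left out. This gave 170 of the 10060 genes in the 2 deposited tables. There were 7 cullins, 43 F-box genes, 15 Kctd, 22 Klhl, 60 Rnf and 22 Trim genes and Zyg11b. One table held 139 of them and counted reads at a proximal and a distal polyadenylation site of the 3′-most exon. The other held 99 and set reads of an upstream exon against those of the 3′-most one. Both tables listed 68 of them. The libraries, labelled total brain, came from 5 mice carrying Cstf2 D50A, an exchange in the RNA recognition motif of the cleavage stimulation factor CSTF2, and from 3 wild-type littermates. All were aged 50 days and of a C57BL/6NCrl background, backcrossed for 4 generations and then bred within the colony, and the labels give neither sex, for a gene on the X chromosome, nor the founder line. The series title links the mutation to human intellectual disability and to faulty 3′ ends, and the comparison asks whether site choice or transcript level differs between the genotypes.

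Ubiquitin ligases attach ubiquitin to chosen proteins, often to mark them for the proteasome. In cullin-RING ligases a cullin scaffold carries a RING protein at one end and, through linkers, a substrate receptor at the other: F-box proteins on CUL1, BTB proteins such as the KLHL and KCTD families on CUL3, and ZYG11 proteins on CUL2. RNF and TRIM proteins mostly carry the RING themselves. In neurons such ligases trim receptors, scaffolds and regulators of axon growth. The choice of polyadenylation site sets the length of the 3′ untranslated region, or, with an upstream exon, the end of the coding region.

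Library totals were 9.62 to 17.5 M reads in the first table and 7.08 to 13.1 M in the second. Levels are CPM, reads per M reads of the table they come from after TMM scaling of library sizes, and since each read marks one transcript end they were not divided by gene length. Cstf2 itself stood at 8.52 ± 0.146 log2 CPM in D50A and 8.52 ± 0.129 in wild-type brains (SD, n = 5 and 3), which cannot check the labels for a coding exchange. None of the neuronal, glial, vascular and blood markers listed in the tables was at 0 reads in all libraries. Markers of cerebellar cells differed between the libraries labelled total brain, and the cause was not tested. Transcripts specific to cerebellar granule cells were nearly absent from D50A mice 1 to 4. Cbln3 stood at 1.07 to 2.09 CPM in D50A mice 1 to 4 and at 273 CPM in D50A mouse 5, against 290 to 350 CPM in wild types. Gabra6, counted in the second table, stood at 0 to 0.249 CPM and 29.8 CPM, against 31.9 to 41.7 CPM in wild types. In D50A mice 1 to 4, 12 of the 18 tabulated granule cell markers (of 30 listed) were lower than in every other library, among them Neurod1, Cbln1 and Zic1, and so were 4 of 9 Purkinje cell markers (of 15), among them Car8 at 5.85 to 6.89 CPM in D50A mice 1 to 4 and 86.4 CPM in D50A mouse 5, against 92.5 to 132 CPM in wild types. The summed level of the granule cell markers was 6034 to 7449 CPM in D50A mice 1 to 4 and 9487 in D50A mouse 5, against 7019 to 10050 in wild types, and its largest part in every library was Slc17a7, which other excitatory neurons share. Of 7 interneuron markers Pvalb alone was lower in D50A mice 1 to 4 than in every other library. It stood at 183 to 193 CPM there and 642 CPM in D50A mouse 5, against 550 to 966 CPM in wild types. Also lower were 2 of 12 oligodendrocyte lineage, 1 of 11 cortical and hippocampal excitatory and 1 of 5 astrocyte markers. Higher there than in every other library were 3 oligodendrocyte lineage, 2 cortical and hippocampal and 2 of 8 striatal markers. Among these, Pdgfra stood at 30.6 to 36.1 CPM in D50A mice 1 to 4 and 13.8 CPM in D50A mouse 5, against 6.33 to 15.1 CPM in wild types. Genotype and the content of these markers cannot be told apart in 4 of the 5 D50A libraries. D50A mouse 5 alone against the wild types, a comparison chosen after the data were seen, is therefore given with the main results. In such bulk libraries fewer cells of a type and less RNA per cell cannot be told apart.

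In wild-type brains the families ranged from almost wholly proximal to almost wholly distal. The distal site held a median of 55.0% of the reads of a member, beside 51.9% over the other 7810 genes with reads, and the sites lay a median of 534 bases apart, beside 632. At 38 of 139 members over 90% of reads were distal, and at 25 under 10%. The highest distal shares in wild types were those of Rnf187 (99.95%), Rnf145, a ligase of the endoplasmic reticulum in sterol control (99.87%), Rnf220 (99.86%), Fbxo2, an F-box protein that binds sugar chains and is abundant in neurons (99.83%), and Rnf141 (98.72%). The lowest were those of Trim9, a neuronal ligase of netrin-guided axon growth (0.589%), Rnf40, which ubiquitinates histone H2B (0.6705%), Rnf14 (0.812%), Trim27 (1.375%) and Fbxo6 (1.40%). In 34 members the sites lay at most 100 bases apart, down to 25 in Fbxl6 and Rnf112, and in 31 over 2000 bases apart. The widest pairs were Rnf103 (26989 bases, with Chmp3 the next protein-coding gene in RefSeq) and Kctd16 (14459 bases). Against an upstream exon, the 3′-most exon held a median of 96.1% of a member's reads in wild types, beside 93.3% for the other 6048 genes. Upstream ends prevailed in 4 of 99 members, Fbxo47, Fbxo36, Trim33 and Rnf24, with 3′-most exon shares of 5.21%, 8.34%, 8.15% and 15.4%. Fbxl21, in which both ends are common, followed at 58.9%.

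Within the 3′-most exon, Zyg11b had the clearest difference of all members between the genotypes, toward the distal site, followed by Klhl7 and Fbxo33 toward the proximal site. edgeR's quasi-likelihood test, adjusted by the Benjamini-Hochberg method over all 7876 tested pairs at a threshold of 0.05, called 0 of 138 tested members (0% of all pairs; smallest adjusted p of a member 0.38), and limma likewise 0. DESeq2 called 1, Zyg11b, beside 0.267% of all pairs. At an unadjusted p under 0.05 edgeR placed 9 members on the distal and 7 on the proximal side, beside 8.67% and 4.25% of all pairs, or 6.52% and 5.07% of the members. The genotypes did not overlap in 5 members on the distal and 3 on the proximal side, beside 2.53% and 1.63% of all pairs (4.15% in either direction). Log2 changes were above 0 in 77 members, beside 59.2% of all pairs. Without wild type 3 edgeR called 0.0127% of all pairs and no member. The median log2 change in usage was 0.0809 over the members and 0.115 over all pairs, where a positive value means relatively more distal reads in D50A brains. Only Trim17, at a mean of 17.6 reads, fell short of the filter.

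**Figure D1:**
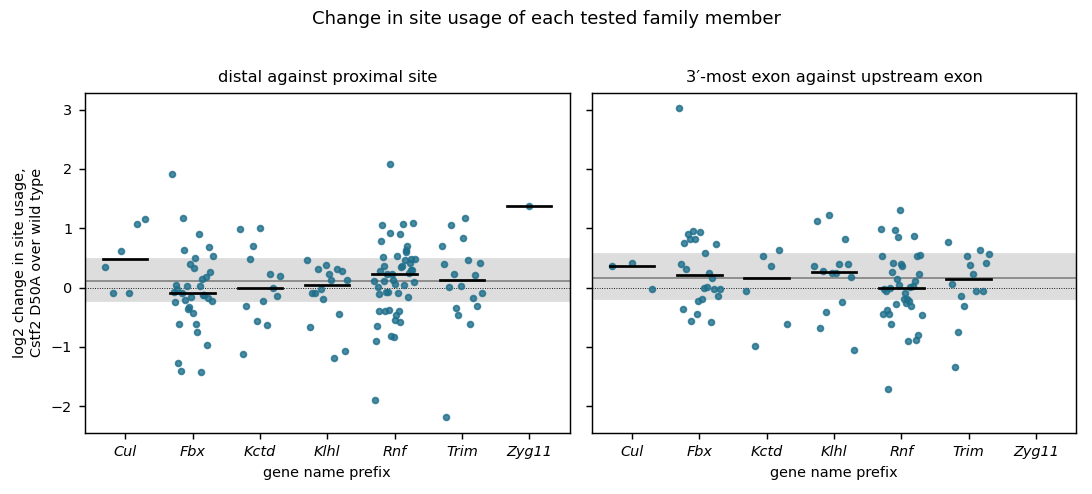
Log2 change in site usage (y axis, D50A over wild type) of each tested member by gene name prefix (x axis), left for the distal against the proximal site and right for the 3′-most against the upstream exon. Each point is a gene, black bars are family medians, and the grey line and band are the median and quartiles of all tested pairs. Most members lie within or near the band, with Rnf146 and Fbxl16 highest on the left and Fbxl16 highest on the right at 3.02.

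By family, the median log2 change within the exon was 0.485 for 6 cullins, -0.0856 for 35 F-box genes, -0.00923 for 13 Kctd, 0.0503 for 16 Klhl, 0.221 for 49 Rnf and 0.121 for 18 Trim genes. Positive values were held by 4 of the cullins, 15 of the F-box, 6 of the Kctd, 8 of the Klhl, 32 of the Rnf and 11 of the Trim genes. The families thus straddled 0, and their values ran from -2.18 in a Trim gene to 2.08 in an Rnf gene.

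Zyg11b, whose protein is the CUL2 receptor for proteins that begin with glycine, had a distal share of 26.25, 25.7, 24.6, 25.9 and 19.1% in D50A mice 1 to 5, against 12.7, 7.52 and 13.4% in wild types 1 to 3. Every D50A brain lay above every wild type, and D50A mouse 5 was the closest to them. The mean share was 24.3 ± 2.97% in D50A and 11.2 ± 3.21% in wild-type brains (SD, n = 5 and 3; log2 change 1.38, SE 0.255, edgeR adjusted p = 0.380). By DESeq2 the difference passed the threshold (log2 change 1.38, SE 0.289, DESeq2 adjusted p = 0.00352), and over 13 alternatives the adjusted p ran from 0.00352 to 0.816. With D50A mouse 5 alone against the wild types the log2 change was 0.94 (SE 0.466, edgeR adjusted p = 1.00). The sites lie 1968 bases apart, at positions 107902335 and 107900367 of the mm9 build, without a chromosome in the files. The proximal site, the main end of this transcript, stood at 102, 95.1, 88.3, 102 and 58.5 CPM in D50A mice 1 to 5, against 61.7, 52.9 and 84.5 CPM in wild types 1 to 3. At the distal site the level was 36.2, 32.8, 28.8, 35.8 and 13.8 CPM in D50A mice 1 to 5, against 8.94, 4.30 and 13.1 CPM in wild types 1 to 3. The mean distal level was thus 29.5 ± 9.26 CPM in D50A and 8.78 ± 4.40 CPM in wild-type brains, while the proximal means were 89.2 ± 18.1 and 66.4 ± 16.3 CPM with overlapping values.

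Among the scaffolds, Cul4b and Cul5 had the largest values. Cul4b, an X-linked scaffold whose loss causes intellectual disability in humans, had a distal share of 96.62, 97.20, 96.17, 93.83 and 93.97% in D50A mice 1 to 5, against 91.20, 88.1 and 94.01% in wild types 1 to 3. D50A mice 4 and 5 lay at the level of wild type 3, so the groups overlapped (log2 change 1.07, SE 0.341, edgeR adjusted p = 0.380). Cul5, the scaffold of the SOCS-box receptors, had 77.0, 76.4, 58.8, 68.8 and 40.9% in D50A mice 1 to 5, against 36.9, 32.9 and 68.3% in wild types 1 to 3. D50A mouse 5 sat among the wild types and wild type 3 among the D50A brains (log2 change 1.16, SE 0.620, edgeR adjusted p = 0.418). The log2 changes of Cul3, Cul1, Cul2 and Cul4a were 0.62, 0.35, -0.0896 and -0.0973, at adjusted p from 0.532 to 0.914, and those of Cul2 and Cul4a took the opposite sign without single libraries.

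**Figure D2:**
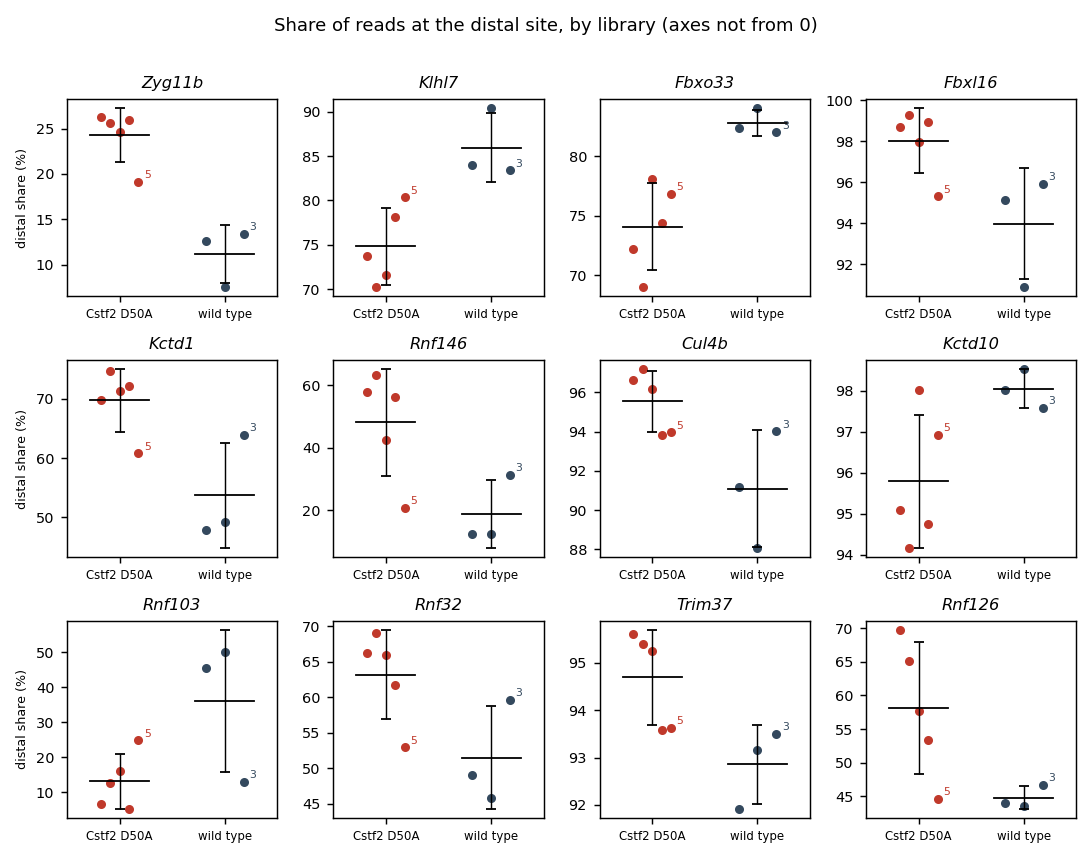
Distal share of reads in percent (y axes, not starting at 0) in 5 D50A and 3 wild-type brains for the 12 members with the smallest p within the 3′-most exon. Points are libraries, long bars are means, error bars are SD, and the small digits mark D50A mouse 5 and wild type 3. Zyg11b, Klhl7, Fbxo33 and Trim37 show no overlap, while D50A mouse 5 and wild type 3 meet or cross in most of the others.

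The receptors with the smallest p lay on both sides. Klhl7, a BTB-kelch adaptor of CUL3, had a distal share of 73.7, 70.2, 71.6, 78.1 and 80.4% in D50A mice 1 to 5, against 84.1, 90.45 and 83.4% in wild types 1 to 3. All D50A brains were below all wild types (log2 change -1.06, SE 0.284, edgeR adjusted p = 0.380). Fbxo33, an F-box protein, had 72.2, 69.0, 78.0, 74.4 and 76.8% in D50A mice 1 to 5, against 82.3, 84.0 and 82.0% in wild types 1 to 3, again without overlap and lower in D50A brains (log2 change -0.74, SE 0.218, edgeR adjusted p = 0.380). In Klhl7 the means of both sites differed: the proximal level averaged 14.4 ± 1.38 CPM in D50A and 9.53 ± 3.76 in wild-type brains, and the distal level 43.5 ± 7.28 and 56.6 ± 6.74. The groups overlapped in 2 further receptors with a higher distal share in most D50A brains. Fbxl16, an F-box protein with leucine-rich repeats whose sites lie 68 bases apart, had 98.69, 99.26, 97.98, 98.92 and 95.31% in D50A mice 1 to 5, against 95.14, 90.87 and 95.92% in wild types 1 to 3 (log2 change 1.92, SE 0.566, edgeR adjusted p = 0.380). Kctd1, a BTB protein that represses AP-2 transcription factors, had 69.85, 74.7, 71.4, 72.1 and 60.8% in D50A mice 1 to 5, against 47.95, 49.2 and 64.0% in wild types 1 to 3 (log2 change 0.995, SE 0.297, edgeR adjusted p = 0.380). In each of the pair, D50A mouse 5 lay below wild type 3. Kctd10, a CUL3 adaptor in the control of RhoB, had 95.09, 94.16, 98.02, 94.76 and 96.92% in D50A mice 1 to 5, against 98.02, 98.53 and 97.58% in wild types 1 to 3 (log2 change -1.12, SE 0.431, edgeR adjusted p = 0.380). Its proximal site held only 4 to 16 reads in any library, so counting error is large there.

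Of the Rnf genes, Rnf146 had the largest log2 change. This ligase recognises poly-ADP-ribosylated proteins such as axin. Its distal share was 57.8, 63.4, 42.4, 56.0 and 20.7% in D50A mice 1 to 5, against 12.4, 12.5 and 31.4% in wild types 1 to 3. D50A mice 1 to 4 lay above all wild types, but D50A mouse 5 lay below wild type 3 (log2 change 2.08, SE 0.639, edgeR adjusted p = 0.380). The means were 48.05 ± 17.1% in D50A and 18.8 ± 10.9% in wild-type brains. Rnf126, a quality-control ligase that works with BAG6, had 69.8, 65.05, 57.7, 53.4 and 44.6% in D50A mice 1 to 5, against 44.0, 43.6 and 46.7% in wild types 1 to 3 (log2 change 0.78, SE 0.329, edgeR adjusted p = 0.380). Rnf32 had 66.25, 69.0, 66.0, 61.7 and 52.9% in D50A mice 1 to 5, against 49.0, 45.8 and 59.65% in wild types 1 to 3 (log2 change 0.70, SE 0.288, edgeR adjusted p = 0.380). In both, D50A mouse 5 again lay within the wild-type range. Rnf103, a ligase of the endoplasmic reticulum, went the other way, with 6.71, 12.6, 16.1, 5.13 and 24.8% in D50A mice 1 to 5, against 45.6, 50.0 and 12.9% in wild types 1 to 3 (log2 change -1.90, SE 0.743, edgeR adjusted p = 0.380). Wild type 3 sat among the D50A brains there, and whether the widely spaced distal site belongs to the Rnf103 transcript was not tested. Rnf157, a neuronal ligase and the most abundant Rnf gene, had 8.78, 8.53, 8.18, 7.28 and 7.13% in D50A mice 1 to 5, against 6.69, 6.99 and 7.03% in wild types 1 to 3, a small difference without overlap (log2 change 0.22, SE 0.141, edgeR adjusted p = 0.460).

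Trim37, a ligase of peroxisomes and centrosomes, had a distal share of 95.61, 95.40, 95.26, 93.58 and 93.63% in D50A mice 1 to 5, against 91.91, 93.15 and 93.50% in wild types 1 to 3 (log2 change 0.47, SE 0.193, edgeR adjusted p = 0.380). The groups did not overlap, by a margin of less than 0.1 points between D50A mouse 4 and wild type 3. None of the most abundant members of other families passed the threshold: Kctd2 had a log2 change of -0.57 (adjusted p = 0.402), Klhl5 of 0.28 (0.616) and Fbxo2 of 0.0320 (0.961), the last with either sign when single D50A libraries were left out.

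In several of these genes the difference in share lay in the distal site. The distal level of Rnf146 was 16.8, 19.6, 7.72, 18.1 and 3.32 CPM in D50A mice 1 to 5, against 2.01, 1.37 and 6.06 CPM in wild types 1 to 3. Its proximal level was 12.3, 11.3, 10.5, 14.2 and 12.7 CPM in D50A mice 1 to 5, against 14.2, 9.62 and 13.3 CPM in wild types 1 to 3. D50A mice 1 to 4 held the 4 highest distal values and the proximal values overlapped fully. Fbxl16 averaged 120 ± 58.9 CPM in D50A and 32.5 ± 27.0 in wild-type brains at its distal site, and 1.73 ± 0.378 and 1.71 ± 0.882 at its proximal site. That proximal site held only 9 to 33 reads in any library. With a distal share of 90.87% or more in each, its distal level is nearly its whole level. Kctd1 averaged 31.5 ± 6.99 in D50A and 17.9 ± 8.05 CPM in wild-type brains distally, and 13.2 ± 1.08 and 14.4 ± 0.781 proximally. Cul4b was the reverse case, with distal means of 95.6 ± 6.11 in D50A and 90.6 ± 19.3 CPM in wild-type brains and proximal means of 4.44 ± 1.55 and 8.57 ± 2.08. These levels of single sites were not tested.

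**Figure D3:**
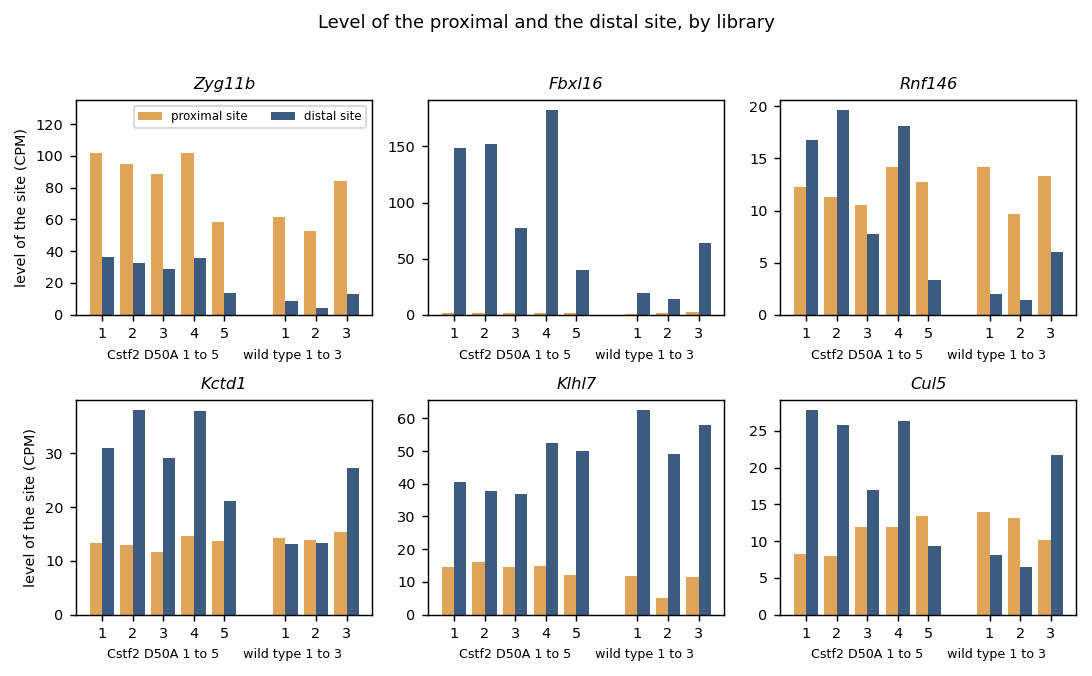
Level of the proximal and the distal site in CPM (y axes) in each library (x axes, D50A mice 1 to 5, then wild types 1 to 3) for 6 members. In Rnf146, Kctd1 and Fbxl16 the distal bars differ between libraries while the proximal bars stay close, and D50A mouse 5 and wild type 3 hold intermediate distal values.

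Between the upstream and the 3′-most exon, Fbxl16 and Klhl24 had the smallest p of the members, both with relatively more 3′-most exon ends in D50A brains. edgeR called 0 of 98 tested members (0% of 6001 pairs; smallest adjusted p of a member 0.282), limma 0, and DESeq2 1, Fbxl16, beside 0.0833% of all pairs. At an unadjusted p under 0.05, edgeR placed 8 members on the 3′-most and 4 on the upstream side, beside 10.4% and 3.63% of all pairs, or 8.16% and 4.08% of the members. The genotypes did not overlap in 5 and 1, beside 4.23% and 1.65% (5.88% in either direction). Log2 changes were above 0 in 55 members, beside 62.2% of all pairs. The median log2 change in usage was 0.125 over the members and 0.169 over all pairs. By family it was 0.372 for 3 cullins, 0.204 for 24 F-box genes, 0.268 for 14 Klhl, 0.155 for 6 Kctd, -0.0131 for 37 Rnf and 0.147 for 14 Trim genes. Trim30d, one of a group of close paralogs, fell short of the filter with a mean of 19.9 reads.

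The 3′-most exon share of Fbxl16 was 99.38, 99.53, 98.90, 99.31 and 96.90% in D50A mice 1 to 5, against 88.1, 89.8 and 97.24% in wild types 1 to 3. Wild type 3 lay above D50A mouse 5, so the groups overlapped there. The means were 98.80 ± 1.09% in D50A and 91.70 ± 4.87% in wild-type brains (SD, n = 5 and 3; log2 change 3.02, SE 0.602, edgeR adjusted p = 0.282). By DESeq2 the difference passed the threshold (log2 change 3.04, SE 0.688, DESeq2 adjusted p = 0.0294). Over 13 alternatives the adjusted p ran from 0.00525 to 0.669. The upstream site of Fbxl16 itself held 10, 9, 11, 18 and 15 reads in D50A mice 1 to 5, against 25, 30 and 23 reads in wild types 1 to 3. The 3′-most exon stood at 200, 203, 105, 241 and 55.3 CPM in D50A mice 1 to 5, against 27.5, 21.0 and 87.5 CPM in wild types 1 to 3. In CPM, upstream ends stood at 1.36 ± 0.346 CPM in D50A and 2.87 ± 0.741 in wild-type brains. Without D50A mouse 5 edgeR called Fbxl16 (adjusted p = 0.00525) and 3.93% of all pairs, and without wild type 3 Fbxl16 (adjusted p = 0.0199) and 2.68% of all pairs. The first of these fits leaves the D50A brains with few granule cell transcripts alone, so genotype and that marker level cannot be told apart in it. With D50A mouse 5 alone against the wild types the log2 change of Fbxl16 was 1.24 (SE 0.806, edgeR adjusted p = 1.00).

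**Figure D4:**
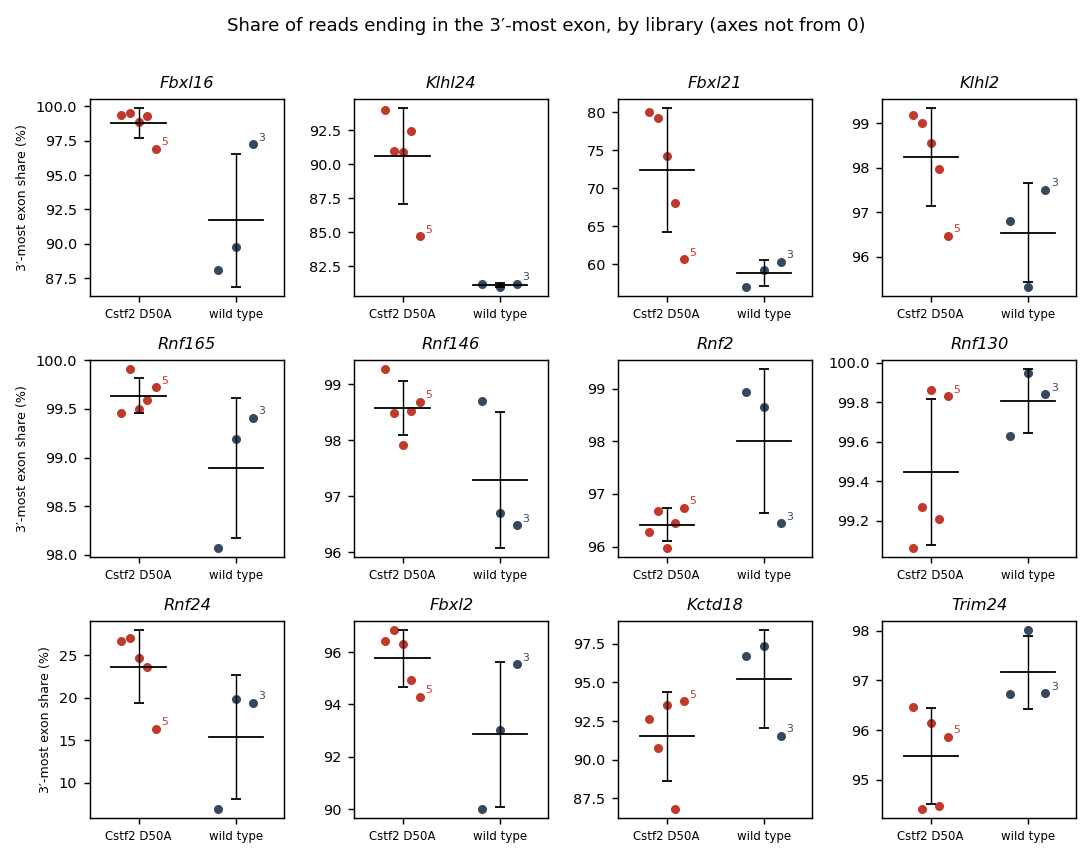
Share of reads ending in the 3′-most exon in percent (y axes, not starting at 0) in 5 D50A and 3 wild-type brains for the 12 members with the smallest p against an upstream exon. Points are libraries, long bars are means, error bars are SD, and the small digits mark D50A mouse 5 and wild type 3. Klhl24, Fbxl21, Rnf165 and Trim24 show no overlap, and in Fbxl16 only D50A mouse 5 and wild type 3 cross.

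Among the BTB adaptors, Klhl24, which controls the turnover of intermediate filaments, had a 3′-most exon share of 94.02, 91.00, 90.91, 92.46 and 84.7% in D50A mice 1 to 5, against 81.2, 81.0 and 81.2% in wild types 1 to 3. The wild types lay within less than 0.3 points of each other and all D50A brains above them (log2 change 1.23, SE 0.314, edgeR adjusted p = 0.282). Klhl2, which binds actin and directs WNK kinases to degradation, had 99.20, 99.02, 98.57, 97.98 and 96.47% in D50A mice 1 to 5, against 96.80, 95.32 and 97.51% in wild types 1 to 3, with D50A mouse 5 among the wild types (log2 change 1.12, SE 0.429, edgeR adjusted p = 0.301). Without D50A mouse 5 edgeR called both, at a log2 change of 1.45 for Klhl24 (adjusted p = 0.0225) and 1.42 for Klhl2 (adjusted p = 0.0442). It then also called Fbxo11, an F-box protein named here after its values were seen, at 1.30 (adjusted p = 0.0442), whose share was 84.4, 78.6, 72.0, 82.95 and 53.6% in D50A mice 1 to 5, against 53.2, 58.9 and 72.0% in wild types 1 to 3. Calls in that fit fell on 4 of 99 members (4.04%), beside 3.93% of all pairs. The fit keeps only D50A brains with few granule cell transcripts, so genotype and that marker level cannot be told apart in it. Kctd18 leaned the other way, at 92.64, 90.78, 93.53, 86.8 and 93.78% in D50A mice 1 to 5, against 96.74, 97.35 and 91.54% in wild types 1 to 3 (log2 change -0.98, SE 0.454, edgeR adjusted p = 0.355).

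Fbxl21, an F-box protein of the circadian clock that acts on cryptochromes, had 80.1, 79.2, 74.2, 68.1 and 60.65% in D50A mice 1 to 5, against 57.0, 59.3 and 60.4% in wild types 1 to 3. No D50A value overlapped the wild types, although D50A mouse 5 exceeded wild type 3 by less than 0.3 points (log2 change 0.90, SE 0.334, edgeR adjusted p = 0.301). Fbxl2 had 95.76 ± 1.09% in D50A and 92.85 ± 2.77% in wild-type brains (log2 change 0.75, SE 0.336, edgeR adjusted p = 0.343). In RefSeq the span of Fbxl21 overlaps that of Lect2. The same holds for Fbxl2 and Ubp1, Rnf24 and Pank2, Rnf146 and Echdc1, Kctd10 and Myo1h, Rnf181 and Tmem150a, and Fbxw4 and Dpcd. It also holds for Trim37 and Ppm1e, Fbxo36 and Trip12, Rnf14 and Pcdh12, and Rnf141 and Ampd3, among others. Reads of overlapping genes may be mixed. The most abundant F-box gene of this table, Fbxw7, the receptor for cyclin E, MYC and Notch, had 90.72 ± 0.675% in D50A and 91.37 ± 2.31% in wild-type brains (log2 change -0.14, SE 0.251, edgeR adjusted p = 0.835). No scaffold passed the threshold: the log2 changes of Cul1, Cul3 and Cul9 were 0.37, 0.42 and -0.0285, at adjusted p from 0.551 to 0.963.

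Among RING proteins, Rnf165, a ligase of BMP signalling in motor axons, had 99.46, 99.91, 99.50, 99.59 and 99.72% in D50A mice 1 to 5, against 98.07, 99.19 and 99.41% in wild types 1 to 3 without overlap (log2 change 1.31, SE 0.545, edgeR adjusted p = 0.314). Its upstream site held only 1 to 7 reads in any library. Rnf146 had 98.57 ± 0.486% in D50A and 97.29 ± 1.22% in wild-type brains (log2 change 0.96, SE 0.412, edgeR adjusted p = 0.320). Rnf24, which ends mostly upstream, had 26.8, 27.0, 24.7, 23.6 and 16.4% in D50A mice 1 to 5, against 6.90, 19.8 and 19.4% in wild types 1 to 3 (log2 change 0.86, SE 0.384, edgeR adjusted p = 0.337). Wild type 1 was far below the other wild types there, and D50A mouse 5 lay below wild types 2 and 3. Rnf2, the catalytic RING1B subunit of Polycomb repressive complex 1, had 96.27, 96.67, 95.97, 96.44 and 96.74% in D50A mice 1 to 5, against 98.93, 98.66 and 96.44% in wild types 1 to 3. Wild type 3 lay within the D50A range (log2 change -0.90, SE 0.386, edgeR adjusted p = 0.320), and without it edgeR called Rnf2 toward the upstream exon (log2 change -1.57, adjusted p = 0.0477). Calls in that fit fell on 2 of 99 members (2.02%), beside 2.68% of all pairs. Rnf130 had 99.45 ± 0.371% in D50A and 99.81 ± 0.163% in wild-type brains (log2 change -1.71, SE 0.744, edgeR adjusted p = 0.328), on 1 to 12 upstream reads per library. Trim24, a transcriptional cofactor, had 96.47, 94.41, 96.14, 94.47 and 95.87% in D50A mice 1 to 5, against 96.73, 98.02 and 96.74% in wild types 1 to 3 (log2 change -0.75, SE 0.347, edgeR adjusted p = 0.355). All D50A values were below all wild types, by less than 0.3 points at the nearest. Trim33, an abundant SMAD4-linked ligase that ends mostly upstream, had 11.7 ± 3.33% in D50A and 8.15 ± 0.633% in wild-type brains, with overlapping groups (log2 change 0.53, SE 0.280, edgeR adjusted p = 0.399).

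For the level of both sites together, Rnf112, Kctd16, Fbxl16 and Fbxl17 had the smallest p in the first table, all with higher means in D50A brains. edgeR called 0 of 138 members (0% of 7876 genes; smallest adjusted p 0.343), limma 0, and DESeq2 0, beside 0.33% of all genes. At an unadjusted p under 0.05 edgeR placed 14 members higher and 2 lower, beside 7.29% and 7.05% of all genes, or 10.1% and 1.45% of the members. The groups did not overlap in 5 members, all higher in D50A brains (Fbxl17, Fbxo46, Kctd6, Rnf111 and Rnf145), beside 2.45% of all genes higher and 2.31% lower (4.76% in either direction). Log2 changes were above 0 in 77 members, beside 50.8% of all genes. Without D50A mouse 5 edgeR called 0 members and 0.863% of all genes. The median log2 change was 0.0362 over the members and 0.00687 over all genes. It was 0.133 for the F-box genes, -0.0655 for Kctd, 0.0979 for Klhl, -0.0208 for Rnf and -0.0494 for Trim genes.

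Fbxl16 had the widest difference in level, 3.56-fold in the fit. Its level was 7.24, 7.26, 6.30, 7.52 and 5.40 log2 CPM in D50A mice 1 to 5, against 4.38, 3.99 and 6.05 log2 CPM in wild types 1 to 3. D50A mice 1 to 4 lay above all wild types, and D50A mouse 5 lay below wild type 3 (log2 change 1.83, SE 0.582, edgeR adjusted p = 0.343). Without wild type 3 the fit gave 6.72-fold, again without a call, and with D50A mouse 5 alone against the wild types the log2 change was 0.29 (SE 0.620, edgeR adjusted p = 1.00). The second table shares reads with the first and gave 7.16 ± 0.869 log2 CPM in D50A and 5.345 ± 1.02 in wild-type brains (log2 change 1.75, SE 0.543, edgeR adjusted p = 0.327), a fold of 3.36 with all libraries and 5.97 without wild type 3. Fbxl17, which dismantles mispaired BTB dimers, stood at 4.86, 4.935, 4.87, 4.87 and 4.69 log2 CPM in D50A mice 1 to 5, against 4.26, 4.35 and 4.68 log2 CPM in wild types 1 to 3, with all D50A values above the wild types (log2 change 0.41, SE 0.139, edgeR adjusted p = 0.343). Fbxo21 stood at 5.71, 5.70, 5.345, 5.57 and 5.22 log2 CPM in D50A mice 1 to 5, against 4.35, 4.72 and 5.35 log2 CPM in wild types 1 to 3 (log2 change 0.66, SE 0.225, edgeR adjusted p = 0.343). Zyg11b stood at 7.11, 7.002, 6.87, 7.11 and 6.18 log2 CPM in D50A mice 1 to 5, against 6.15, 5.84 and 6.61 log2 CPM in wild types 1 to 3 (log2 change 0.66, SE 0.242, edgeR adjusted p = 0.343). In Fbxo21 and Zyg11b D50A mouse 5 again lay below wild type 3.

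Rnf112, a brain GTPase with a RING domain, had the smallest p, at 8.93, 8.79, 8.325, 8.82 and 8.24 log2 CPM in D50A mice 1 to 5, against 7.415, 7.25 and 8.33 log2 CPM in wild types 1 to 3 (log2 change 0.90, SE 0.270, edgeR adjusted p = 0.343). Only wild type 3 reached the D50A range, and D50A mouse 5 and D50A mouse 3 were the lowest D50A brains. Rnf165 stood at 6.41, 6.41, 6.29, 6.40 and 5.98 log2 CPM in D50A mice 1 to 5, against 4.80, 5.65 and 6.08 log2 CPM in wild types 1 to 3 (log2 change 0.70, SE 0.248, edgeR adjusted p = 0.343), Rnf181 at 4.31 ± 0.352 log2 CPM in D50A and 3.51 ± 0.634 in wild-type brains (log2 change 0.76, SE 0.289, edgeR adjusted p = 0.343), and Rnf146 at 4.61 ± 0.468 log2 CPM in D50A and 3.93 ± 0.412 in wild-type brains (log2 change 0.71, SE 0.282, edgeR adjusted p = 0.343). Kctd16, an auxiliary subunit of GABA-B receptors, stood at 7.04, 6.99, 6.96, 7.05 and 6.61 log2 CPM in D50A mice 1 to 5, against 6.30, 6.31 and 6.68 log2 CPM in wild types 1 to 3 (log2 change 0.50, SE 0.151, edgeR adjusted p = 0.343). D50A mice 1 to 4 were close together and D50A mouse 5 lay just below wild type 3. Kctd20 had a log2 change of 0.45 and Klhl2 of 0.58, each at an adjusted p of 0.343. On the lower side stood Kctd7, mutated in a progressive myoclonic epilepsy, at 3.89, 4.28, 4.37, 3.99 and 4.44 log2 CPM in D50A mice 1 to 5, against 4.83, 4.75 and 4.395 log2 CPM in wild types 1 to 3, with D50A mouse 5 inside the wild-type range (log2 change -0.47, SE 0.172, edgeR adjusted p = 0.343).

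**Figure D5:**
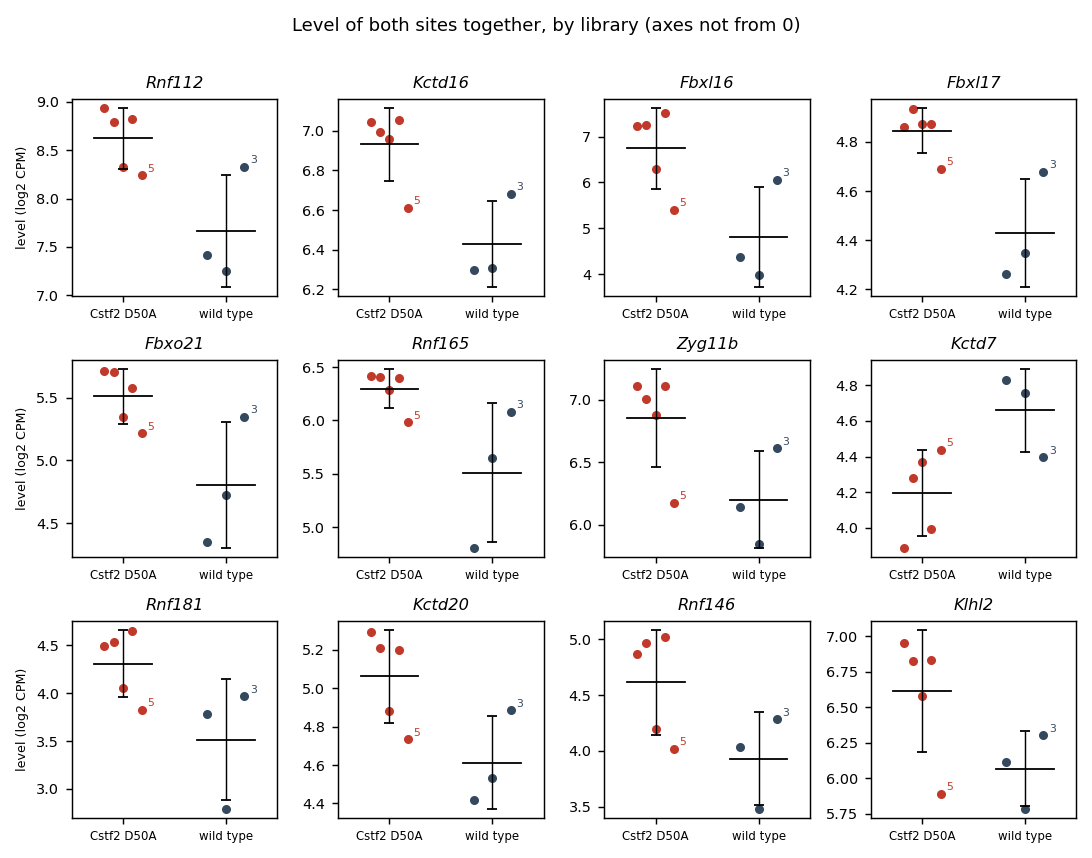
Level of both sites together in log2 CPM (y axes, not starting at 0) in 5 D50A and 3 wild-type brains for the 12 members with the smallest p in the first table. Points are libraries, long bars are means, error bars are SD, and the small digits mark D50A mouse 5 and wild type 3. In each of the 12 genes D50A mouse 5 is the D50A brain nearest to the wild types and wild type 3 the wild type nearest to the D50A brains.

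In all 12 members with the smallest p for level in the first table, D50A mouse 5 was the D50A brain nearest to the wild types and wild type 3 the wild type nearest to the D50A brains, and the log2 change was larger when either of these libraries was left out. For level in the second table the counts of the nearest library were 10 and 11 of 12, for usage within the exon 8 and 12, and for usage against upstream exons 8 and 7. Without D50A mouse 5 the log2 change was larger in 11, 12 and 10 of these 12, and without wild type 3 in 12, 12 and 11. Leaving out the library nearest to the other genotype widens the difference by itself. Where the library left out was the nearest, the larger change is therefore no separate observation. Larger changes also occurred in other genes, as in usage within the exon without D50A mouse 5 (12 larger, 8 nearest). Their cause was not tested.

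Set alone against the 3 wild types, D50A mouse 5 gave smaller log2 changes than the 5 D50A brains together in most of the members with the smallest p. The lone brain is assumed there to vary as the wild types do, and the fits share its reads and the wild types with those of all libraries. The members were chosen by their p with all libraries, and D50A mouse 5 was already the D50A brain nearest to the wild types in most of them. Smaller changes follow in part from that choice and are no separate check. edgeR called 0 members, beside 0% of all pairs or genes, in each of the 4 comparisons. With 1 brain in a group the fit had little chance to call a gene, so its calls decide nothing. Its median log2 change in usage within the exon was -0.0917 over the members, beside -0.0175 over all pairs. Against upstream exons it was -0.0565, beside 0.00881. In level it was -0.0159 in the first table, beside -0.0197 over all genes, and -0.0113 in the second, beside -0.0237. Of the 12 members with the smallest p with all libraries, 11 kept the sign of the log2 change within the exon and all 12 were smaller in size. Against upstream exons 10 of 11 kept it and 9 were smaller, with Rnf130 short of the filter. In level 10 of 12 kept it in the first table and 8 of 12 in the second, and 12 and 11 were smaller. Usage within the exon was -0.62 (SE 0.472, edgeR adjusted p = 1.00) on the log2 scale for Klhl7, -0.54 (SE 0.364, edgeR adjusted p = 1.00) for Fbxo33 and 0.24 (SE 0.786, edgeR adjusted p = 1.00) for Rnf146. Klhl24 had 0.365 (SE 0.518, edgeR adjusted p = 1.00) against its upstream exon, and Rnf112 had 0.49 (SE 0.417, edgeR adjusted p = 1.00) in level.

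None of the scaffolds and most abundant members passed the threshold in level. The log2 changes of the cullins ran from -0.17 in Cul4a to 0.38 in Cul5, at adjusted p of 0.366 or more. Rnf157, the member with the most reads, stood at 10.05 ± 0.146 log2 CPM in D50A and 9.81 ± 0.377 in wild-type brains (log2 change 0.21, SE 0.171, edgeR adjusted p = 0.490). Trim37 had a log2 change of -0.13, Fbxo2 of -0.30, Kctd2 of -0.11 and Klhl5 of 0.0985, at adjusted p from 0.381 to 0.734.

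In the second table edgeR called 0 of 98 members by level (0% of 6001 genes; smallest adjusted p 0.327), DESeq2 and limma 0, with 7 higher and 3 lower at an unadjusted p under 0.05, beside 7.6% and 7.47% of all genes. The groups did not overlap in 2 members higher in D50A brains, Rnf111 and Rnf145, and in 1 lower, Fbxo9, beside 2.28% and 2.5% of all genes (4.78% in either direction). Log2 changes were above 0 in 45 members, beside 50.6% of all genes. The smallest p was that of Fbxw4, at 5.56, 5.65, 5.36, 5.38 and 5.07 log2 CPM in D50A mice 1 to 5, against 4.05, 3.92 and 5.18 log2 CPM in wild types 1 to 3 (log2 change 0.92, SE 0.279, edgeR adjusted p = 0.327). Wild type 3 lay above D50A mouse 5 and the other wild types far below. Rnf145 had 9.83 ± 0.0636 log2 CPM in D50A and 9.615 ± 0.0759 in wild-type brains, a small difference without overlap (log2 change 0.22, SE 0.105, edgeR adjusted p = 0.344). On the lower side, Klhl33 stood at 4.91, 5.05, 4.58, 4.87 and 5.89 log2 CPM in D50A mice 1 to 5, against 5.86, 5.66 and 5.59 log2 CPM in wild types 1 to 3 (log2 change -0.58, SE 0.257, edgeR adjusted p = 0.330). D50A mouse 5 was the highest of all libraries there, and without it edgeR called Klhl33 lower in D50A brains (log2 change -0.849, adjusted p = 0.0258). It was the only call among 99 members in that fit (1.01%), beside 1.08% of all genes. The D50A brains left in it are those with few granule cell transcripts, so genotype and that marker level cannot be told apart. Rnf152, a lysosomal ligase that restrains mTORC1, had a log2 change of -0.41 and Trim33 of -0.36, with D50A mouse 5 within the wild-type range in both (adjusted p of 0.343 and 0.34). Rnf24 (-0.45) and Fbxo30 (-0.43) were alike in sign, at an adjusted p of 0.33 each.

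Other genes of the pathway were taken as 2 lists. For 44 tested genes of the cullin-RING core and its regulators (linkers, NEDD8 enzymes, COP9 signalosome and further receptors), edgeR called 0 in usage within the exon, with 5 on the distal and 4 on the proximal side at an unadjusted p under 0.05 (8.67% and 4.25% of all pairs) and a median log2 change of 0.168. For 71 other ubiquitin ligases (HECT, UBR, TRAF, MDM and similar) it called 0, with 5 and 0 and a median of 0.122, beside 0.115 over all pairs. Against upstream exons, 27 core genes had 1 and 1 and a median of 0.128, and 64 other ligases had 11 on the 3′-most and 2 on the upstream side and a median of 0.345, beside 10.4% and 3.63% of all pairs and a median of 0.169. In level, the core genes of the first table had 2 higher and 3 lower (median -0.0785) and the other ligases 11 higher and 0 lower (median 0.095), beside 7.29% and 7.05% of all genes and a median of 0.00687. In the second table the core genes had 1 higher and 2 lower (median -0.0293) and the other ligases 6 and 1 (median 0.104), beside 7.6% and 7.47% of all genes and a median of 0.00636. edgeR called 0 in each. DESeq2 called 0 genes of either list in any comparison.

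Fbxl16 had an unadjusted p under 0.05 in all 4 comparisons, and Klhl2, Rnf146 and Rnf165 in 3. Fbxl17, Kctd1, Rnf103, Rnf181, Rnf24 and Zyg11b had one in 2. The 2 tables share reads: in all 68 members listed in both, every library had as many or more reads in the 3′-most exon of the second table as at both sites of the first. These repeats are therefore not independent.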

How the data were processed

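QuantSeq 3′ mRNA-Seq REV libraries were made from RNA labelled total brain, per the labels' protocols. Build mm9 and the tools STAR 2.5, HTSeq 0.6.0 and FastQC 0.11.3 appear, without roles, in the submitters' processing notes. Site selection, filters against internal priming and use of strand are not given in the sources used here. Values of overlapping genes and paralogs are therefore uncertain. Raw counts, deposited by the authors in 2 tables with 1 column for each library and site (per the file headers), were used unchanged. Columns were matched through the library code in each title and 0 were left unused. Replicate numbers follow record order and pair nothing. Libraries of a genotype differed beyond sampling noise (chi-square per degree of freedom 2.93 to 61.6).

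Pairs with a mean of 20 or more reads over both sites, and 10 or more reads in all at each, were tested on the whole table. Usage was the site-by-genotype term of an edgeR quasi-likelihood fit with a term per library. Level was fitted to both sites' summed reads after TMM scaling. Log2 CPM used a prior count of 2, and the limma ratio added 0.5 to each count. SE was obtained by dividing the log2 change by the root of the F statistic. The scripts, tested on simulated data, used DESeq2 1.42.0, limma 3.58.1 and edgeR 4.0.16 in R 4.3.3. Named members were, per comparison, the 12 with the smallest p at 50 or more mean reads, any called by edgeR or DESeq2, the most abundant of each family, all cullins and Zyg11b, and the 5 highest and lowest wild-type shares. Members, lists and rules were chosen with earlier results of these data known. Alternatives were DESeq2, limma, other filters and scalings, leaving out each library and, added after seeing the data, D50A mouse 5 alone against the wild types. RefSeq (GRCm38.p6), another build, gave only gene names and neighbours, and 169 of 170 symbols matched, with Fbxo18 an older name. No sequence at the sites was used. The labels give no sex or batch, and the p-values set the difference between genotypes against the spread between mice of a genotype.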

Additional observations from a re-analysis of the deposited data

Results flagged for a closer look

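In 8 of 84 values of named members, 1 of the 5 D50A brains stood apart from the other 4, by a gap over 0.71 of the group's range. Chance marks about 1 group in 20, and the genes share libraries and, between the tables, reads. D50A mouse 5 was the outlying brain in 7 of the 8, each time on the wild-type side of the other D50A brains. It was also the D50A brain with granule cell markers at wild-type level (Cbln3 at 273 CPM, beside 1.07 to 2.09 CPM in the other D50A brains). Wild type 3 was often the wild type nearest to the D50A brains. It had Cbln3 at 290 CPM and Cbln1 at 408 CPM, beside 48 to 53.1 CPM for Cbln1 in D50A mice 1 to 4. Both values were the lowest of the wild types, while another granule cell marker, Chn2, was highest in wild type 3 (434 CPM). Whether marker content bears on the position of either library was not tested.

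For Zyg11b the distal share of D50A mouse 5 was 19.1%, beside 24.6% to 26.25% in the other D50A brains. Its level was 6.18 log2 CPM there, beside 6.87 to 7.11. In Fbxl16 the 3′-most exon share of D50A mouse 5 was 96.9%, beside 98.9% to 99.53%, and in Cul1 89.64%, beside 90.65% to 90.92%. The level of Kctd16 was 6.61 log2 CPM in D50A mouse 5, beside 6.96 to 7.05. For Rnf165 it was 5.98, beside 6.29 to 6.41, in the first table and 6.40, beside 6.72 to 6.84, in the second. The exception was Klhl5, whose 3′-most exon share was 98.66% in D50A mouse 1, beside 99.12% to 99.27% in the others. Wild types, 3 in number, were too few for this check.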

How the results depend on the processing

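No paired analysis was possible because the labels give the animals no replicate number, litter or batch. edgeR called 0 members in all 4 comparisons, and this count stayed 0 with limma, with both other filters, with robust dispersion and with both other scalings. The fit of D50A mouse 5 alone against the wild types, chosen after seeing the data, is not counted here. With 1 brain in a group it had little chance to call a gene. DESeq2 called 1 member in usage within the exon and 1 in usage against upstream exons. Leaving out single libraries gave 0 to 4 members in usage against upstream exons (4 without D50A mouse 5, and 2 without wild type 3, Fbxl16 and Rnf2), 0 to 1 in level in the second table (Klhl33 without D50A mouse 5), and 0 in the other comparisons. Counts over whole tables moved with the same libraries: without D50A mouse 5, edgeR called 236 pairs against upstream exons and 68 and 65 genes by level in the first and second table, against 0 with all libraries, and without wild type 3 it called 161 pairs against upstream exons and 1 within the exon. DESeq2 called 21 and 5 pairs by usage and 26 and 0 genes by level. The cause of these moves was not tested.

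Of the named members' log2 changes, 1098 values under an alternative kept direction and side of the threshold, 8 passed it and 24 changed sign, all 24 without a call. Over the fits that each left out 1 library, usage within the exon ran from -0.1045 to 0.133 for Fbxo2, -0.3905 to 0.1378 for Cul2 and -0.2753 to 0.1034 for Cul4a. Against upstream exons it ran from -0.1278 to 0.03664 for Cul9, -0.3245 to 0.09843 for Fbxw7, -0.2456 to 0.1064 for Kctd17, -0.2457 to 0.4762 for Klhl5 and -0.08266 to 0.1801 for Rnf157. Level ran from -0.1477 to 0.1285 for Cul4b, -0.07476 to 0.005836 for Cul1, -0.3273 to 0.07826 for Cul2 and -0.002071 to 0.2763 for Cul3 in the first table, and from -0.02646 to 0.5458 for Cul9 in the second. The other sign changes were those of Cul1 in level with library totals in place of TMM (0.03248) and of Kctd17 in usage with limma (0.0001863). Low counts at a minor site, such as 1 to 7 reads for Rnf165, limit the precision of its share.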

Other observations

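The rows of the deposited tables are not in 1 alphabetical order but in 3 runs, each from digits to Z, and no source used here says what the runs stand for. In the table of paired sites the first run held 290 rows, the middle run 7090 and the last 571. All 286 tested pairs of the first run had a log2 change in usage below 0 in D50A brains and all 569 of the last run had one above 0, beside 58.4% above 0 in the middle run. The first run held 8 members (Fbxo33, Klhl7, Rnf103 and Trim23 among them), with log2 changes from -2.18 to -0.435. The last run held 8 (Fbxo31, Kctd1, Rnf126, Rnf146, Rnf26, Rnf32, Rnf6 and Zyg11b), from 0.493 to 2.08. In the table of upstream exons the runs held 113, 5638 and 396 rows, all 109 tested pairs of the first below 0 and all 386 of the last above 0. The last run held Fbxl16, Fbxl21 and Klhl24, from 0.895 to 3.02, and the first run 0 members. The order follows the same counts as the log2 changes and is no separate evidence for them.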
